A study of Saccharomyces cerevisiae with 45 samples.

Results

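The yeast heat shock series holds 2 groups of arrays from cells that were never heated, and these were compared gene by gene. The first, the A863 control, has 3 arrays titled WT_25C. The second, the A927 control, has 2 arrays titled WT_42C_0min, which the labels also describe as cells kept at 25 °C. Together they make 5 of the 45 arrays, chosen by title, and 5449 genes were measured on each. Both groups are labelled as Saccharomyces cerevisiae strain BY4147, mating type a, carrying the alleles his3D1, leu2D0, met15D0 and ura3D0. In both, cells grew in YPD, a rich medium of yeast extract, peptone and dextrose, and no heat was applied. The label that differs is the batch, A863 against A927. The values also show that the batches were normalised in separate runs, so culture, batch and normalisation run cannot be told apart in any difference given here. Since the labels do not state separate cultures for the replicates, a p-value here reflects array-to-array spread alone, and that spread may be technical.

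Cells in rich medium still adjust many transcripts to what the medium and the air supply. Low phosphate turns on the genes of the Pho4 regulator, low iron those of Aft1 and Aft2, and low copper those of Mac1, while Pdr1, Pdr3 and Yrr1 set the level of drug exporters. The heat shock factor Hsf1 keeps chaperone genes at a basal level without heat, and Msn2 and Msn4 drive a general stress programme that moves against growth genes such as those for making ribosomes. Heme and oxygen regulators set the respiratory chain and the hypoxic genes.

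Replicates lay close together and the controls lay apart. Over all genes, arrays correlated at 0.9988 to 0.9994 within the A863 control, at 0.9989 within the A927 control and at 0.975 to 0.977 between them. A gene's median standard deviation (SD) was 0.03 in the A863 control and 0.04 in the A927 control on the log2 scale. Probe sets with no target in this strain read a median of 0.71 higher on the A927 arrays, over 29 probe sets, and the lowest value of an array was 4.77 to 4.82 there against 3.78 to 3.80. Array medians were 10.18 to 10.19 and 10.21 to 10.22. The 3' minus 5' difference of the ACT1 control probe sets, a measure of RNA integrity and labelling, was 0.52 ± 0.01 (SD, n = 3) in the A863 control and 0.75 ± 0.09 (SD, n = 2) in the A927 control. The part of these shifts in the results was not tested. Markers of the labelled mating type were present: the a-factor genes MFA1 and MFA2 and the alpha-factor receptor gene STE2 read 12.84 to 14.03 on all 5 arrays. Of the labelled deletions, URA3 read 4.83 to 5.34, MET17 4.50 to 5.44 and LEU2 5.52 to 5.61 in the A863 control and 5.92 to 5.93 in the A927 control. These genes are among the 29 probe sets that set the floor of unspecific signal (5.44 for A863 and 5.63 for A927), so their place against it is no check of the deletions. HIS3 read 11.26 to 11.49, and the position of its probes relative to the deletion was not examined.

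A call of lower or higher needed an adjusted p below 0.05 in limma and a difference between control means of at least 2-fold, that is 1 on the log2 scale. Of 5449 genes, 158 were lower in the A927 control (2.90%) and 33 were higher (0.606%), 191 in all (3.51%). At any size of difference, 1515 genes passed as lower (27.8%) and 1751 as higher (32.1%). None of the 191 called genes overlapped between the controls. Over all genes 36.4% did not overlap and were lower and 44.6% did not overlap and were higher, so the lack of overlap does not set the called genes apart. The median difference over all genes was 0.03. Differences are given as A927 minus A863 on the log2 scale, with the standard error (SE) of the fit. A lower value may mean fewer cells with the transcript or less of it per cell, which bulk RNA cannot tell apart.

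**Figure D1:**
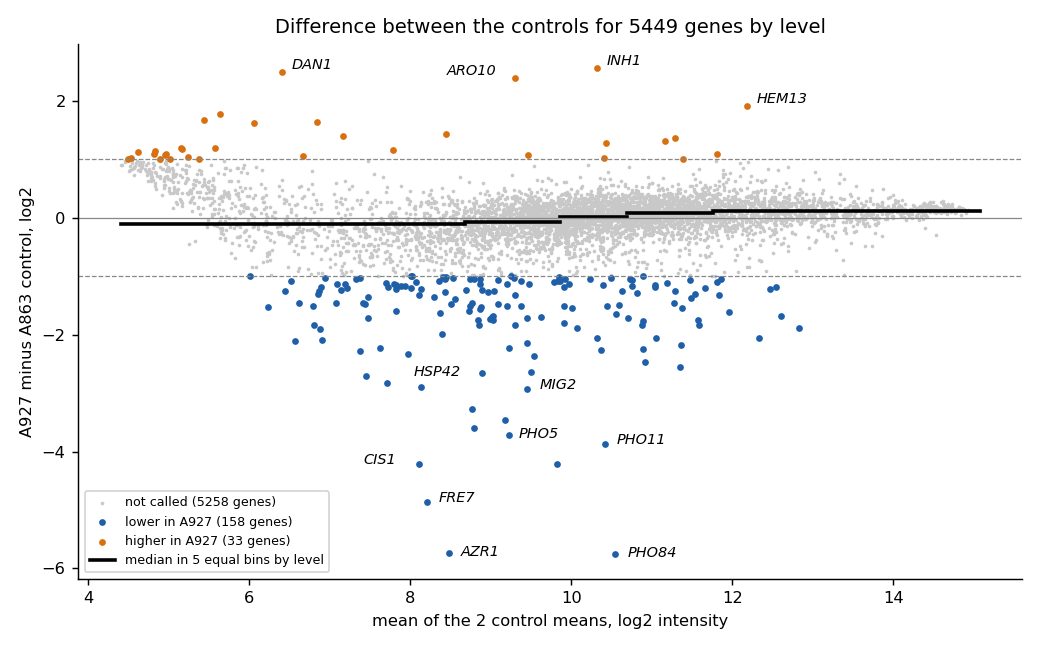
Difference between the unheated controls (A927 minus A863, log2) against the mean level of each of 5449 genes (log2 intensity). Blue points are the 158 genes called lower, orange points the 33 called higher, dashed lines mark 1 and -1, and black bars give the median in 5 equal bins of genes by level, from -0.11 in the dimmest bin to 0.12 in the brightest. Of the genes called higher 23 lie in the dimmest bin, and of those called lower 59 lie there and 46 in the next.

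The difference drifted with level. The median was -0.11 in the dimmest of 5 equal bins of genes and 0.12 in the brightest, and with the 5 arrays quantile-normalised together it was 0.05 and 0.02. Of the 33 genes called higher, 9 were below the floor in both controls, so that no fold is given for them, and another 9 were below it in the A863 control alone. That left 15 measured in both. Of the 158 genes called lower, 4 were below the floor in the A927 control.

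Phosphate genes were lower in the A927 control. Of 26 measured genes 8 were lower (30.8%, against 2.90% of all genes) and 18 did not pass, with a median of -0.48 over the list. PHO84, the high-affinity phosphate transporter of the cell surface, read 13.43, 13.43 and 13.42 in the A863 control and 7.69 and 7.64 in the A927 control. It was thus near the top of the scale in each A863 array and far below in each A927 array. The difference was -5.76 ± 0.10 (SE), or 54.3-fold, with a limma adjusted p of 1.8e-25.

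The secreted acid phosphatases followed. PHO5 read 10.98, 11.10 and 11.15 against 7.41 and 7.32, a difference of -3.71 ± 0.08. PHO11 read 12.32, 12.35 and 12.39 against 8.41 and 8.54, a difference of -3.88 ± 0.07, and its probes may also catch the near-identical PHO12. Both groups of arrays stood far apart for each gene.

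SPL2, which holds back low-affinity phosphate uptake, read 10.35, 10.35 and 10.52 against 7.06 and 7.19 (-3.28 ± 0.08). PHM6, a gene of the regulon whose role is not described here, differed by -2.70 ± 0.13. VTC3, a subunit of the complex that makes and stores polyphosphate in the vacuole, differed by -2.06 ± 0.06, from 12.07, 12.06 and 12.13 to 10.06 and 9.99. PHO8, the vacuolar alkaline phosphatase, differed by -1.24 ± 0.06. PHO89, the sodium-coupled phosphate transporter, which was named after its values were seen, differed by -1.48 ± 0.07. These are transport, scavenging and storage genes, and each was lower on both A927 arrays than on any A863 array. So were 36.4% of all genes.

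Metal genes formed another group. Of 31 genes of the iron regulon 10 were lower (32.3%, against 2.90% of all genes), with a list median of -0.84. When the arrays of 37 °C 1 min stood in for the A863 control 6 were lower (3.27% of all genes). TIS11, which binds and destabilises messenger RNAs of iron-using proteins when iron is scarce, read 9.68, 9.77 and 9.31 against 6.75 and 6.64, a difference of -2.89 ± 0.12 (adjusted p = 3.87e-17 by limma). The iron-sulphur scaffold gene ISU1 differed by -1.75 ± 0.05, from 12.44, 12.48 and 12.43 to 10.73 and 10.67. FIT2, a cell wall mannoprotein that retains siderophore iron, differed by -1.72 ± 0.09. CCC2, which moves copper into the secretory pathway to load the iron oxidase, differed by -1.70 ± 0.07, and MRS4, a mitochondrial iron carrier, by -1.51 ± 0.07. In all of these the groups were separate, and 36.4% of all genes were likewise lower without overlap. The other 21 genes of the list did not pass, among them the iron oxidase gene FET3 (-0.001), FTR1 (0.32) and CCC1 (0.59). Of the 31 genes 27 lay below 0 and 4 above.

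The copper uptake genes were lower too, but the A863 arrays disagreed on them. FRE7, a cell surface metal reductase induced by low copper, read 9.61, 11.03 and 11.28 against 5.70 and 5.85, a difference of -4.86 ± 0.78 (adjusted p = 7.98e-06 by limma). CTR1, a high-affinity copper transporter, read 12.16, 12.80 and 12.91 against 10.14 and 10.01 (-2.55 ± 0.73), and CTR3, another, read 8.47, 9.38 and 9.57 against 6.84 and 6.77 (-2.34 ± 0.37). FRE1, the reductase that serves both copper and iron uptake, read 13.06, 13.50 and 13.50 against 11.33 and 11.27 (-2.05 ± 0.62). Replicate 1 of the A863 control was the lowest for all 4 genes, though still above both A927 arrays. Replicate 1 was also below the others for all 4 genes at 37 °C 1, 3 and 5 min. FRE7 read 7.47, 10.36 and 10.79 at 1 min, 6.99, 9.61 and 10.21 at 3 min, and 6.46, 8.30 and 9.43 at 5 min. At 7 min it read 10.42, 10.57 and 10.49, and replicate 1 no longer stood apart. Without replicate 1 of the A863 control the FRE7 difference was -5.38. Of the 18 copper and zinc genes on the list, CTR1 and CTR3 were lower and 1 was higher, against 2.90% and 0.606% of all genes. That gene, ZRT1, the high-affinity zinc transporter, read 10.54, 10.50 and 10.47 against 11.90 and 11.74 (1.32 ± 0.06).

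Drug exporters and their regulators had the largest share of lowered members among the 46 lists, 11 of 22, against 2.90% of all genes. The list median was -0.94. The lists were chosen with earlier results of these data known, so this rank is a description. AZR1, a plasma membrane transporter linked to azole and weak acid resistance, read 11.32, 11.36 and 11.37 against 5.68 and 5.55. The A927 mean lay below the floor, so the level there is a bound, and AZR1 was at least 51.7-fold lower (adjusted p = 7.33e-25 by limma). SNG1, a membrane protein that confers resistance to a mutagen, read 12.06, 12.20 and 12.20 against 9.70 and 9.67 (-2.47 ± 0.05). The sphingolipid base exporter gene RSB1 was at least 4.00-fold lower, since it too was below the floor in the A927 control. FLR1, an exporter of the major facilitator family, differed by -1.88 ± 0.07, TPO4, a polyamine exporter, by -1.72 ± 0.08, and YRR1, a regulator of this family, by -1.70 ± 0.07. CIS1, a gene outside the list, read 10.25, 10.23 and 10.18 against 5.98 and 6.05 (-4.21 ± 0.11). No array of either control fell within the range of the other for these genes. Of all genes 36.4% were also lower without overlap.

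**Figure D2:**
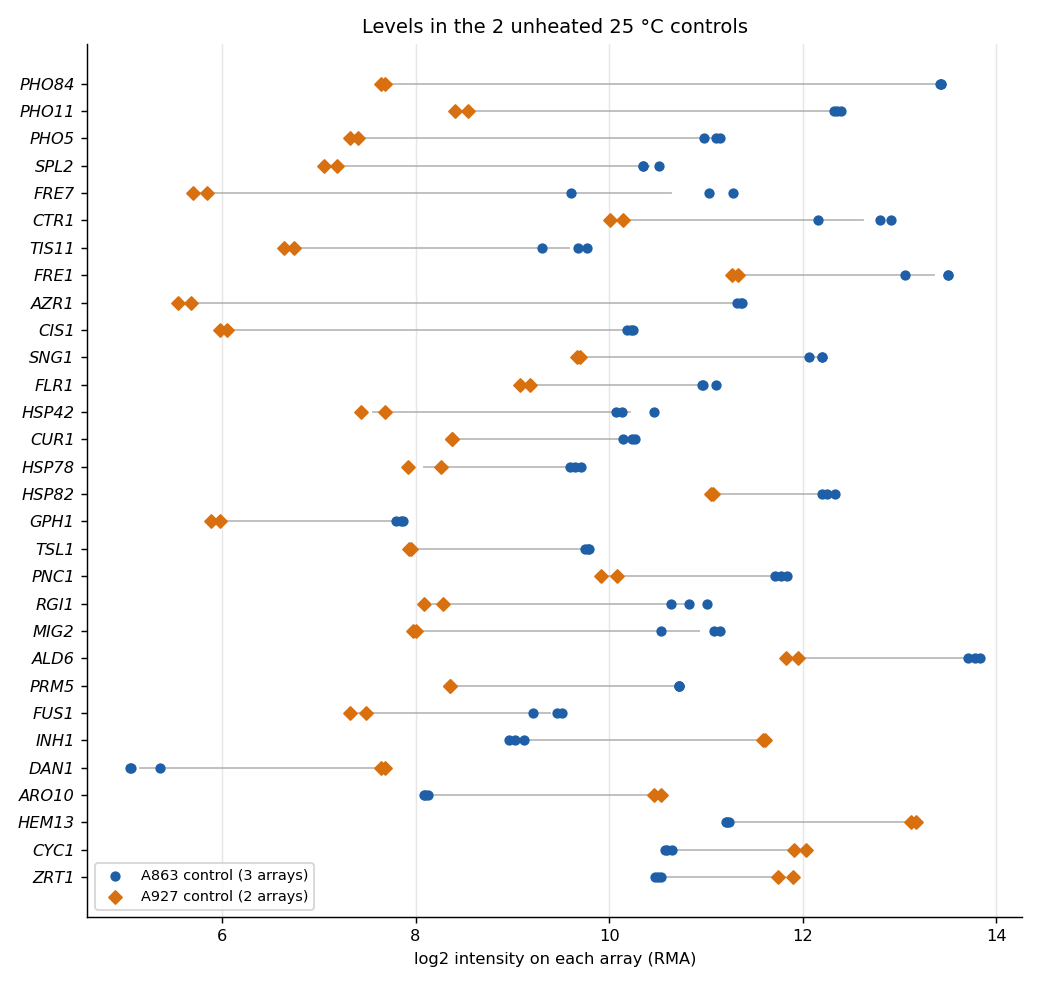
Log2 intensity of 30 genes on each array of the unheated controls: blue circles are the 3 arrays of the A863 control, orange diamonds the 2 arrays of the A927 control, and grey lines join the group means. The controls do not overlap for any gene shown, and FRE7, CTR1 and FRE1 have 1 A863 array below the other 2. Over all genes 36.4% were lower and 44.6% higher without overlap.

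Basal chaperone expression differed by 2-fold or more for part of the heat shock factor's genes. Of 24 Hsf1-dependent chaperone genes 6 were lower in the A927 control (25%, against 2.90% of all genes), and the list median was -0.28. At any size 17 passed as lower (70.8%, against 27.8% of all genes), and 22 lay below 0. HSP42, a small heat shock protein that gathers misfolded protein, read 10.07, 10.13 and 10.46 against 7.69 and 7.44, a difference of -2.66 ± 0.08 or 6.30-fold (adjusted p = 2.25e-20 by limma). CUR1 and BTN2, which sort misfolded protein into deposits, differed by -1.84 ± 0.07 and -1.50 ± 0.08. The mitochondrial disaggregase gene HSP78 read 9.60, 9.65 and 9.71 against 7.92 and 8.26 (-1.56 ± 0.07). For the inducible Hsp90 gene HSP82 the values were 12.20, 12.25 and 12.33 against 11.05 and 11.07 (-1.20 ± 0.03), and for the cytosolic disaggregase gene HSP104 they were 12.03, 12.03 and 11.97 against 10.95 and 10.94 (-1.06 ± 0.05). All of these were separate between the controls, and 36.4% of all genes were likewise lower without overlap.

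The other 18 chaperone genes of the list were not called, and SSA1 lay farthest below 0 among them, at -0.69. HSP26, a small heat shock protein that is nearly silent without heat, read 6.42, 6.51 and 6.61 against 6.24 and 6.23 (-0.28 ± 0.07). SSA4, an inducible Hsp70, read 9.13, 9.19 and 9.29 against 9.15 and 8.99, and these ranges overlapped. HSC82, the constitutive Hsp90, differed by -0.04 ± 0.03. RPN4, the activator of proteasome genes, differed by -0.56 ± 0.06, under the 2-fold threshold. Among 16 chaperone genes of the endoplasmic reticulum 0 were called by limma (8 at an unadjusted p under 0.05 and lower, 3 and higher), with a median of -0.12.

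The genes listed under the general stress regulators Msn2 and Msn4 were lower in larger number. Whether each of them answers to these regulators was not tested. Of 51 genes 13 were lower (25.5%, against 2.90% of all genes). The median was -0.45, and 45 lay below 0 against 46.1% of all genes. In a fit on all 45 arrays, which had a wider spread, 7 passed, and with 37 °C 1 min in place of the A863 control 19 did. PNC1, a nicotinamidase, read 11.71, 11.77 and 11.84 against 10.08 and 9.92 (-1.77 ± 0.06). HXK1, a hexokinase gene repressed by glucose, differed by -1.75 ± 0.08, and HSP30, a regulator of the plasma membrane proton pump, by -1.71 ± 0.07. CTT1, the cytosolic catalase, read 7.92, 7.96 and 7.86 against 7.13 and 7.07, a difference of -0.82 ± 0.07 that stayed under 2-fold. HSP12, a membrane-stabilising protein often read as a mark of stress, had overlapping values, 8.35, 7.72 and 7.62 against 7.93 and 8.05. HSP12 thus did not separate the controls, while PNC1, HXK1 and HSP30 did, as did 36.4% of all genes with lower values.

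Carbohydrate storage and breakdown genes were part of this. Of 19 trehalose and glycogen genes 5 were lower (26.3%, against 2.90% of all genes) and the median was -0.57. In the fit on all 45 arrays 3 passed. GPH1, glycogen phosphorylase, read 7.80, 7.87 and 7.85 against 5.89 and 5.98 (-1.90 ± 0.09). TSL1, which belongs to the trehalose synthase complex, read 9.75, 9.78 and 9.79 against 7.95 and 7.93 (-1.83 ± 0.06). The glycogen synthase genes GSY1 and GSY2 differed by -1.59 ± 0.06 and -1.53 ± 0.08, and ATH1, the acid trehalase, by -1.13 ± 0.05. Both the making and the breakdown of the reserves were thus represented.

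The 14 genes of the vacuolar list were mostly hydrolase genes, with some inhibitors and other proteins among them, and their median was -0.49. The 4 lower ones (28.6%, against 2.90% of all genes) were PHO8, ATH1, the aminopeptidase gene APE1 (-1.13 ± 0.06) and the protease gene PRB1 (-1.09 ± 0.05). ATG8, whose product coats the autophagosome membrane, differed by -1.28 ± 0.10. The peroxiredoxin repair gene SRX1 and GSH1, which makes the first step to glutathione, were the 2 lowered genes among 24 of oxidative defence, at -1.35 ± 0.11 and -1.19 ± 0.08. FOX2, an enzyme of peroxisomal fatty acid breakdown, read -1.51 ± 0.06.

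Growth genes shifted the other way by small amounts. Of 122 ribosome biogenesis genes 0 reached 2-fold by limma, but 120 lay above 0, the median was 0.29, and 76 passed as higher at any size (83 at an unadjusted p under 0.05), which is 62.3% against 32.1% of all genes. Over 28 genes of RNA polymerases I and III the median was 0.31 and 21 passed as higher at any size. Over 129 cytosolic ribosomal protein genes the median was 0.16, and 100 passed at any size. That last shift depended on the scaling: with the 5 arrays quantile-normalised together its median was 0.02 and 21 passed, while for ribosome biogenesis the median was 0.22 and 98 passed, against 37.5% of all genes.

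Single growth genes differed little. The nucleolar protein gene NSR1 read 13.51, 13.51 and 13.53 against 13.70 and 13.67, and the RNA helicase gene DBP2 12.89, 12.87 and 12.77 against 13.15 and 13.20. UTP13, a subunit of the complex that processes ribosomal RNA, read 11.87, 11.92 and 11.76 against 12.13 and 12.33 (0.38 ± 0.14). Each was a little higher on both A927 arrays, as were 44.6% of all genes, and under 2-fold. DOT6, a repressor of ribosome biogenesis genes, was higher as well, by 0.51 ± 0.06. RPL41A was the 1 ribosomal protein gene called lower, at -1.05 ± 0.26, but its A927 arrays read 9.67 and 10.75. Without replicate 1 of the A927 control it was -0.51 and did not pass, and its probes may also catch the near-identical RPL41B.

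Most genes of the respiratory chain and ATP synthase stood higher in the A927 control. Of 35 genes 4 were higher and 1 was lower, against 0.606% and 2.90% of all genes, and 32 lay above 0 and 3 below. At any size 31 passed as higher, against 32.1% of all genes. The median was 0.65, or 0.59 with the 5 arrays quantile-normalised together. INH1, an inhibitor of the mitochondrial ATP synthase when it runs in reverse, read 9.12, 8.97 and 9.03 against 11.59 and 11.61, a difference of 2.56 ± 0.09 or 5.90-fold (adjusted p = 2.47e-18 by limma). CYC1, the main cytochrome c, read 10.65, 10.60 and 10.58 against 12.03 and 11.91 (1.36 ± 0.08). The oxidase subunit gene COX4 differed by 1.10 ± 0.07 and the Rieske protein gene RIP1 by 1.03 ± 0.08. COX5B, the oxidase subunit of low oxygen, went the other way, from 9.32, 9.23 and 9.38 to 8.35 and 8.20 (-1.04 ± 0.08).

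Few genes of sterols, heme and low oxygen were called. Of 37 genes on that list 3 were higher, 1 was lower and 33 did not pass, with a median of 0.16. Over all genes 0.606% were higher and 2.90% lower. HEM13, an oxygen-using enzyme of heme synthesis, read 11.24, 11.22 and 11.21 against 13.12 and 13.17 (1.92 ± 0.07, adjusted p = 1.47e-18 by limma). DAN1, a cell wall mannoprotein of anaerobic cells, read 5.36, 5.06 and 5.05 against 7.64 and 7.68, and was at least 4.66-fold higher because the A863 mean was below the floor. UPC2, an activator of sterol genes and of DAN1, differed by 1.07 ± 0.13. ROX1, the repressor of hypoxic genes, read 10.81, 10.81 and 10.72 against 9.17 and 9.32 (-1.54 ± 0.07). HEM13 and DAN1 are known targets of this repressor, as is COX5B, which was lower. Whether the level of ROX1 bears on any of these genes was not tested.

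Carbon and nitrogen genes were mostly not called. The shares over all genes were 2.90% lower and 0.606% higher. Of 33 nitrogen source genes 1 was higher and 1 lower, and of 26 glycolysis and fermentation genes 1 was lower. In the list of 22 genes for hexose transporters and their regulators, the 1 lower gene was the repressor gene MIG2, and no transporter gene was called. The 31 genes of the citric acid cycle and gluconeogenesis had 2 lower and 1 higher. Of 56 genes of other amino acid pathways 2 were higher and 54 did not pass. ARO10 and ARO9, which break down aromatic amino acids to fusel alcohols, were higher by 2.39 ± 0.06 and 1.28 ± 0.05, and ARO10 read 8.13, 8.10 and 8.09 against 10.54 and 10.46. The proline permease gene PUT4 was higher by 1.06 ± 0.10 and the ammonium permease gene MEP2 lower, at -1.08 ± 0.07. MIG2, a repressor that acts when glucose is high, read 11.15, 11.08 and 10.54 against 7.97 and 8.01 (-2.94 ± 0.17). ALD6, the main acetaldehyde dehydrogenase of the cytosol, read 13.83, 13.78 and 13.71 against 11.83 and 11.95 (-1.88 ± 0.05). RGI1, a gene of respiratory growth, read 10.64, 10.82 and 11.01 against 8.28 and 8.09 (-2.64 ± 0.08). IDH1 and IDH2, the subunits of mitochondrial isocitrate dehydrogenase, were both lower. IDH1 read 11.37, 11.39 and 11.41 against 10.41 and 10.37, just past the 2-fold threshold, and IDH2 differed by -1.04 ± 0.05. Each of these genes was separate between the controls, where 36.4% of all genes were lower and 44.6% higher without overlap. RTG1, an activator of the retrograde pathway that controls IDH1 and IDH2, was higher, from 6.52, 6.39 and 6.49 to 7.93 and 7.80 (1.40 ± 0.15). Whether its level bears on these 2 lowered genes was not tested.

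Some sulphur genes were lower. Of 34 methionine and sulphur genes 5 were lower (14.7%, against 2.90% of all genes) and the median was -0.27. With the 5 arrays quantile-normalised together 3 were lower. The 5 included the methionine permease genes MUP3 (-1.47 ± 0.08) and MUP1 (-1.14 ± 0.07) and MET2, which makes O-acetylhomoserine (-1.30 ± 0.12). The others were MHT1, which recycles S-methylmethionine (-1.23 ± 0.10), and MMP1, its permease. MMP1 read 9.84, 9.67 and 9.74 against 8.76 and 8.73 and was just past the threshold. MHT1 and MMP1 are neighbours in the R64 annotation. Of 14 arginine genes 1 was lower and 13 did not pass, with a median of -0.14. That gene, ARG1, argininosuccinate synthetase, differed by -1.10 ± 0.10, and RNR3, a ribonucleotide reductase subunit induced by DNA damage, by -1.11 ± 0.07.

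Of 33 genes of mating type a and the pheromone response 5 were lower (15.2%, against 2.90% of all genes). The other 28 did not pass, and the list median was -0.31. PRM5, induced by pheromone and by cell wall stress, read 10.72, 10.72 and 10.72 against 8.36 and 8.36 (-2.37 ± 0.07). FUS1, needed for cell fusion, read 9.51, 9.46 and 9.21 against 7.32 and 7.49 (-1.99 ± 0.08). PRM9, another pheromone-regulated gene, differed by -1.63 ± 0.08, the a-specific gene ASG7 by -1.60 ± 0.09 and AGA2, a subunit of the a-agglutinin, by -1.28 ± 0.07. BAR1, the protease that degrades alpha-factor, differed by -0.67 ± 0.06, and MFA1, MFA2 and STE2 by 0.21 ± 0.06, 0.17 ± 0.05 and 0.05 ± 0.06.

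Markers of other cell types were near their floors or did not move together. Of 4 alpha cell markers, MF(ALPHA)1, the alpha-factor gene, was below the floor in the A863 control, at 4.74, 4.90 and 4.60, and read 6.57 and 6.48 in the A927 control, at least 2.13-fold higher. The alpha-agglutinin gene SAG1 read 9.18, 9.23 and 9.15 against 9.22 and 9.31. MF(ALPHA)2, the second alpha-factor gene, read 6.65, 6.78 and 6.66 against 6.71 and 6.59, and STE3, the a-factor receptor of alpha cells, 5.19, 5.32 and 5.46 against 5.73 and 5.89. The summed level of the 4 markers, most of it SAG1, was 9.53 to 9.60 in the A863 control and 9.73 to 9.78 in the A927 control. For 6 a cell markers it was 15.37 to 15.39 and 15.34 to 15.43. Probe sets differ in brightness, so the sums of different lists are not compared. HO, the mating type endonuclease of haploids, was higher by 0.84 ± 0.06, and RME1, a haploid repressor of meiosis, differed by -0.64 ± 0.05. For 7 markers of sporulating diploids the summed level was 10.20 to 10.26 and 10.18 to 10.26. The meiotic gene SPO22 read 6.12, 5.87 and 6.09 against 7.76 and 7.59 (1.65 ± 0.13), whereas for the sporulation genes DIT2 and MEK1 and the glycerol transporter gene STL1 the A863 control was below the floor.

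Daughter cell genes gave a small uniform shift. None of 12 genes of daughter cell separation reached 2-fold by limma, but 12 of 12 passed as lower at any size, against 27.8% of all genes, and the median was -0.45. DSE2 and SCW11, wall enzymes secreted by the daughter, differed by -0.77 ± 0.09 and -0.77 ± 0.08, and CTS1, the endochitinase, by -0.27 ± 0.06.

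**Figure D3:**
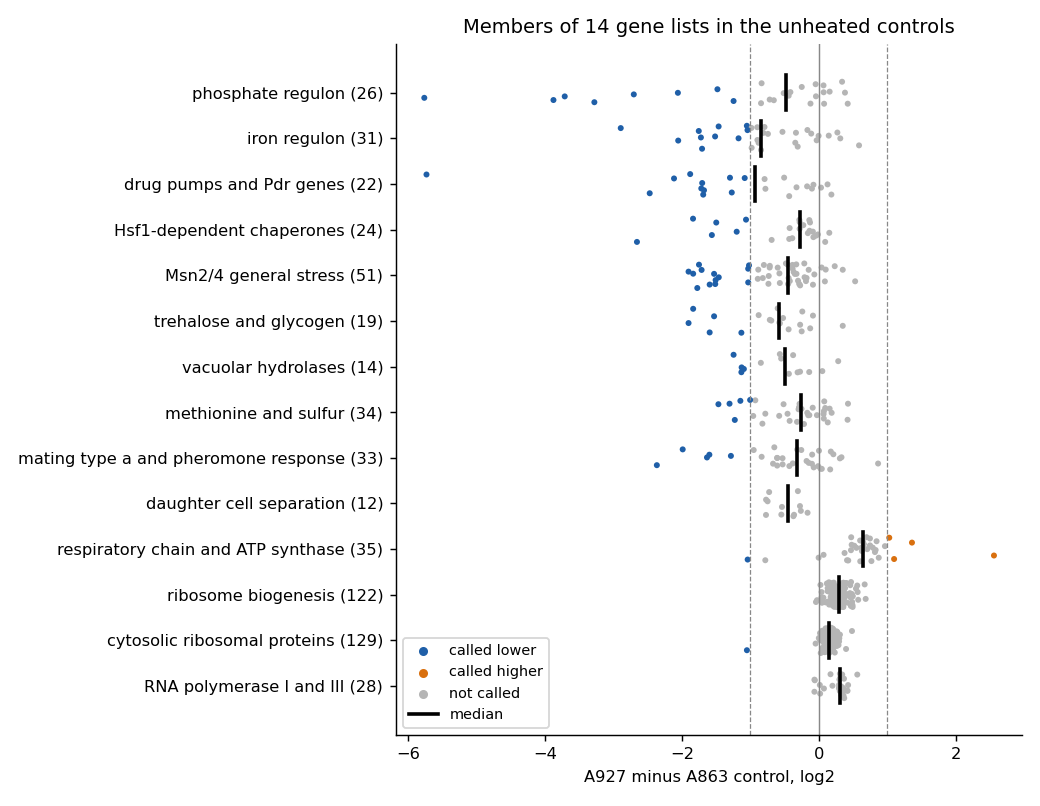
Difference between the unheated controls (A927 minus A863, log2) for each measured member of 14 gene lists, with the number of members in brackets. Blue points were called lower, orange points higher, grey points were not called, black bars are list medians and dashed lines mark 1 and -1. The phosphate, iron and drug pump lists reach farthest to the left, and the respiratory list lies mostly to the right of 0 with a median of 0.65.

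The same batches allowed a look at other arrays. The differences of 42 °C (A927) minus 37 °C (A863) at matched times share no array with the comparison of the controls, but they share its batches and normalisation runs, and temperature is confounded with them. At 3 min 98 of all genes were lower at 42 °C (1.80%) and 81 higher (1.49%). Of the 158 genes lower in the A927 control 58 were among the lower genes at 3 min, which is 36.7% of the control list and 59.2% of the heated list. Of the 33 higher genes 21 were higher at 3 min, 63.6% of the control list and 25.9% of the heated list. At 5 min (2.11% lower and 2.59% higher over all genes) the counts were 54 and 21, and at 10 min (7.85% and 8.77%) they were 56 and 18. At 40 min, where 19.2% of all genes were lower and 17.9% higher, 34 of the 158 were lower and 59 were higher, and 27 of the 33 were higher. At 3, 5 and 10 min 5, 4 and 11 of the 158 were called higher, and at none of the 4 times was any of the 33 called lower (0). At all 4 times 16 lower and 12 higher genes kept their call.

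Of the 8 lower phosphate genes 7 were also lower at 3 min, 4 at 5 min, 4 at 10 min and 3 at 40 min. PHO84 read 12.98 to 13.07 at 37 °C and 6.49 to 6.65 at 42 °C (-6.46 ± 0.10). Of the 11 lower drug pump genes 8, 7, 6 and 3 were lower at these times. AZR1 had a mean of 11.36 at 37 °C 3 min and of 5.21 at 42 °C, where it was below the floor, so no exact difference is given. RSB1 and TPO4 differed by -0.03 ± 0.08 and 0.11 ± 0.08 at 3 min. Of the 10 lower iron genes 6, 5, 6 and 3 were lower at the 4 times. Of the 6 lower chaperone genes 0 were lower at any of them by limma. Of the 13 lower Msn2/4 genes 0 were lower at 3 min, 1 at 5 min, 3 at 10 min and 0 at 40 min. For the 5 lower trehalose and glycogen genes the counts were 3 at 10 min and 0 at the other times. GPH1, TSL1, GSY1 and GSY2 are on both lists, so these counts share genes. At 3 min all 6 chaperone genes read 0.34 to 0.52 higher at 42 °C, and the 13 Msn2/4 genes had a median of 0.58. HSP42 thus went from -2.66 ± 0.08 without heat to 0.52 ± 0.08 after 3 min. On the other side HEM13 stood at 2.56 ± 0.07, ARO10 at 3.02 ± 0.06 and INH1 at 1.54 ± 0.09 at 3 min. DAN1 had a mean of 8.13 at 42 °C and was below the floor at 37 °C.

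Genes were also sorted by their own response to heat. The arrays of 37 °C at 10 min minus 1 min, which are not part of the control comparison, raised 626 genes (11.5%) and lowered 591 (10.8%). Of the raised genes 71 were lower in the A927 control, which is 11.3% of them and 44.9% of the 158, and their median control difference was -0.34. For the lowered genes the median was 0.23 and 16 were lower, and among the other 4232 genes 71 were lower (1.68%). Of the 71 lower and heat-raised genes 9 were lower again at 3 min (12.7%), against 49 of the 87 not raised by heat (56.3%). At 10 min the counts were closer, 24 of the 71 (33.8%) and 32 of the 87 (36.8%). HSP42, raised by 3.40 ± 0.07 in that heat contrast, GPH1 by 4.94 ± 0.08 and TSL1 by 4.07 ± 0.05 are among the raised genes, and AZR1, at 0.19 ± 0.09, is not.

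**Figure D4:**
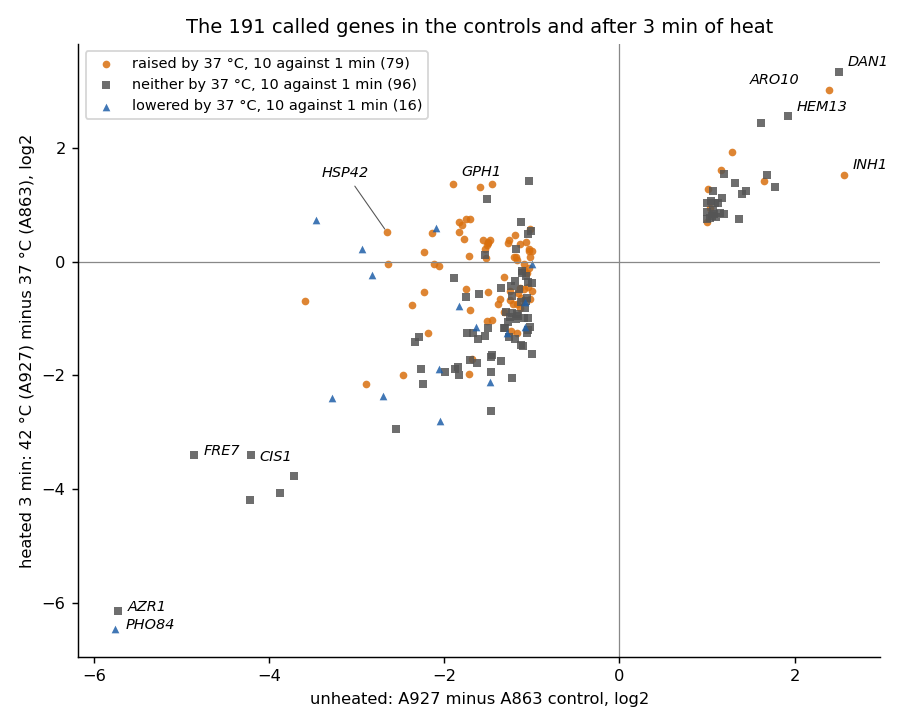
The 191 genes called between the unheated controls: their control difference (A927 minus A863, log2) against the difference after 3 min of heat (42 °C in A927 minus 37 °C in A863, log2). Orange circles are genes raised by 37 °C between 1 and 10 min, blue triangles lowered ones and grey squares neither. AZR1, whose level in A927 is below the floor on both axes, and PHO84 lie far below 0 on both, whereas HSP42 and GPH1 are below 0 on the first and above 0 on the second.

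Arrays of the remaining batches, each at its own temperature and time, extend the picture for single genes. PHO84 read 14.10 to 14.14 in batch A705 (37 °C 80 min) and 11.30 to 11.96 in P230 (46 °C), both far above the 6.14 to 6.76 of the heated A927 arrays and the 6.53 to 7.14 of A961 (42 °C, a batch whose replicates disagree). FRE7 was likewise high in A705 and P230, at 9.95 to 10.25 in A705 and 10.07 to 10.62 in P230 against 5.34 to 6.11 in A927. A863 was not uniform for FRE7, since replicate 1 fell to 6.46 at 5 min and all replicates read 8.35 to 8.55 at 15 min. AZR1 was not high in both: it read 10.85 to 11.97 on the heated A863 arrays but 4.64 to 5.36 in A705, which has the value distribution of A863, and 9.28 to 10.02 in P230. So A863 and A705 were alike for PHO84 and far apart for AZR1.

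**Figure D5:**
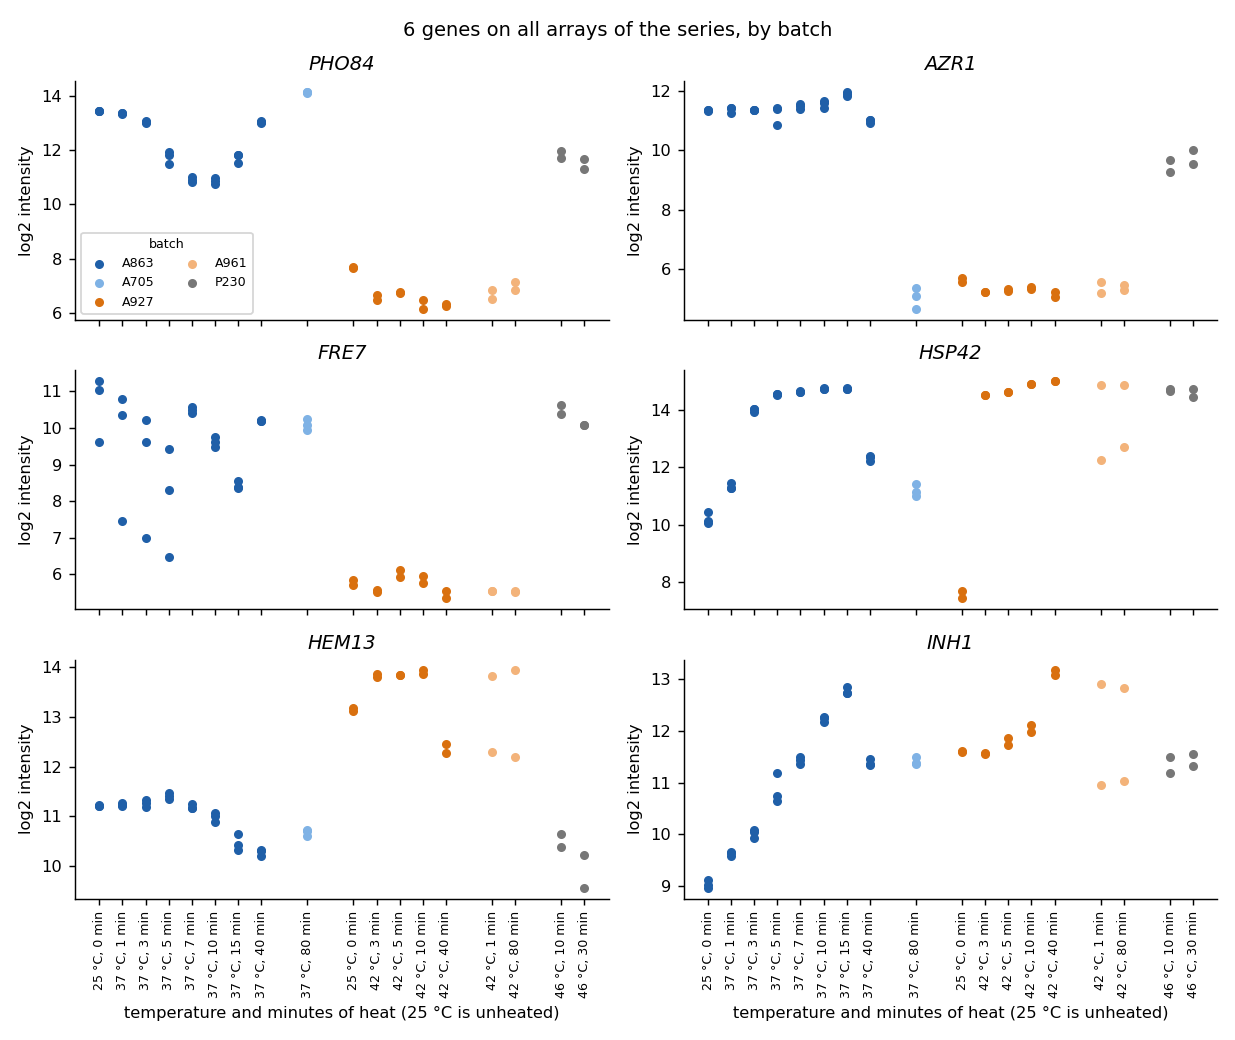
Log2 intensity of 6 genes on all 45 arrays, ordered by batch, temperature and minutes of heat; each point is an array and colours mark the batch. PHO84 and FRE7 are high in A863, A705 and P230 and low in A927 and A961. Within A863, FRE7 fell to 7.47, 6.99 and 6.46 on replicate 1 at 1, 3 and 5 min. At 15 min it read 8.35 to 8.55 on all A863 replicates. AZR1 is high in A863 and P230 only. HSP42 starts lower in the A927 control (7.44 and 7.69) than in the A863 control (10.07 to 10.46). After 5 min of heat it reads 14.63 in A927 and 14.51 to 14.54 in A863. At 40 min the values are 14.99 and 12.22 to 12.40.

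The arrays of 37 °C 1 min are the nearest in time to the A863 control within its batch, and they share that control with the comparison above, so the values are only set side by side. Against the A863 control 2 genes were higher at 1 min (0.0367%) and 11 lower (0.202%), and in the A927 control 39 were higher than at 1 min (0.716%) and 178 lower (3.27%). ECM13 was among the 11 and read 7.65, 7.64 and 7.36 in the A863 control, 6.12 and 5.95 in the A927 control (-1.51 ± 0.12) and a mean of 5.23 at 1 min, which is below the floor. PRM7, another pheromone-regulated gene, read 10.79, 10.46 and 9.61 in the A863 control, 11.12 and 11.18 in the A927 control and a mean of 7.95 at 1 min (-2.34 ± 0.18). It was not called between the controls, at 0.87 ± 0.21, but was 1.12 and called without replicate 1 of the A863 control. MIG2 had a mean of 9.25 at 1 min, between the controls. RRT5 read 8.90, 9.08 and 9.38 in the A863 control, 6.17 and 6.43 in the A927 control (-2.82 ± 0.21) and a mean of 8.69 at 1 min.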

How the data were processed

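Per the submitters' processing notes the authors summarised the arrays with RMA through affy, so the deposited values are log2 intensities, background-corrected, quantile-normalised and reduced to 1 value per probe set; the sources used here give neither versions nor a genome build. RMA removes any overall change in messenger RNA per cell and compresses differences near background. Groups came from the titles. Of 5900 probe sets on 45 arrays, 137 were controls, 5498 had 1 gene symbol, 0 had several and 265 had none. All 5498 matched R64 names, which updated 12 symbols. The probe set with the highest mean stood for each of 47 genes with several, leaving 5449. The floor was the 95th percentile of 29 probe sets without a target (array tags, tryptophan controls, URA3, LEU2, MET17), per set of arrays with a common distribution. No arrays were identical (0 pairs).

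A mean per group was fitted with limma 3.58.1 in R 4.3.3 (lmFit, eBayes) to the 34 arrays of batches A863 and A927 (13 groups, 21 residual degrees of freedom), unpaired and two-sided, and p-values were adjusted by Benjamini-Hochberg across the 5449 genes. Genes were called at an adjusted p under 0.05 and a difference of at least 1. A gene below the floor in 1 control is given as a bound. The number of arrays limits precision. The procedure was tested on simulated data. Members, 46 gene lists and tests were chosen with earlier results of these data known, so list counts are descriptions. Named genes are the 15 largest rises and falls with standard names and no overlap, as many as 6 called genes a list, members of lists with at most 12 genes, cell type markers and a fixed set. Promoter sequences were not analysed here, and chromosome ends were taken by gene order. Alternatives covered the arrays fitted, prior variance, weights, scaling, floor filter, probe set mean, minimum difference, the 1 min arrays as control, the replicate block and each array left out.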

Additional observations from a re-analysis of the deposited data

How the results depend on the processing

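Of 17 alternative fits, none moved the count of 191 called genes by over 1.5 times. It was 148 with all 45 arrays, 148 and 149 with quantile normalisation of the fitted arrays and of the 5 control arrays, 182 with the floor filter, 184 with a common median, 217 with 37 °C 1 min in place of the A863 control, and 189 to 205 with each control array left out. With no minimum difference 3266 genes passed, 1751 higher and 1515 lower. Under every alternative 15 of the 33 higher and 81 of the 158 lower genes kept their call, and under every scaling and the floor filter 19 and 106 did. Over all genes same-numbered arrays of the 2 controls did not deviate together (r = 0.02 and 0.06; within A863 replicate 1 stood apart for the copper genes), and the replicate block gave 192 called genes. Directions that reversed were those of SSA4 (0.024 and 0.025 under the quantile normalisations), URA3 (-0.28 and -0.24), MF(ALPHA)2 (0.19 and 0.22, and -0.11 to 0.013 with an array left out), HSP12 (-0.048 to 0.32 with an array left out), HIS3 (-0.11) and ECM13 (0.81), the last 2 with 37 °C 1 min as control, where ECM13 is below the floor; the cause was not tested. Of the 90 called genes named in the text 66 kept their call under every alternative and ECM13 reversed. The other 23 fell short of the threshold under at least 1, namely APE1, ARG1, ARO9, ASG7, ATG8, ATH1, COX5B, DIT2, FRE1, GPH1, HSP30, HSP78, IDH1, MEK1, MEP2, MHT1, MMP1, PRB1, PUT4, RIP1, RNR3, RPL41A and SRX1. PRM7 passed at 1.21 with the mean of its probe sets. Signal near the floor and 2 or 3 arrays a group limit what could be measured.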

Other observations

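Some of the largest differences belonged to no gene list, and the genes named here were chosen after their values were seen. YLL056C, known by its systematic name, read 11.89, 11.97 and 11.92 in the A863 control and 7.73 and 7.69 in the A927 control, a difference of -4.22 ± 0.06 (SE) by limma. At 3 min of heat the difference of 42 °C minus 37 °C was -4.19 ± 0.06, about as large. YLR108C, at -3.59 ± 0.05 between the controls, differed by -0.70 ± 0.05 at 3 min, and YKR075C, at -3.46 ± 0.18, by 0.73 ± 0.18. PLB1, a phospholipase B of the cell surface, read 11.99, 11.99 and 12.04 against 9.81 and 9.72 (-2.25 ± 0.07). DDR48, a gene induced by DNA damage and heat, read 12.47, 12.50 and 12.41 against 10.29 and 10.26 (-2.18 ± 0.05). MPC3, a subunit of the mitochondrial pyruvate carrier, read 10.61, 10.55 and 10.42 against 8.39 and 8.39 (-2.14 ± 0.10). None of these 6 genes overlapped between the controls, where 36.4% of all genes were lower without overlap.

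Position in the genome was read from the systematic names and the gene order of the R64 annotation. Median differences on the 16 chromosomes lay between 0.01 and 0.05. Among the outermost 10 measured genes at each chromosome end 24 of 320 were lower (7.5%), against 134 of 5129 elsewhere (2.61%). Calls of higher were also denser there, at 5 of 320 (1.56%) against 28 of 5129 (0.546%). Called genes stood next to each other in 9 pairs, of which 7 went the same way. How many pairs a random choice of genes would give was not worked out, and 158 of the 191 called genes were lower. Neither count is thus read as clustering. Of 265 probe sets without a gene symbol, 9 differed by -1 or less and 5 by 1 or more, with no test.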
